A study of Mus musculus with 10 samples.

Results

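The S100 family was examined through 10 genes, S100a1, S100a4, S100a6, S100a8, S100a9, S100a10, S100a11, S100a13, S100a14 and S100a16. Members were taken by symbol alone, as every probeset whose platform annotation gives exactly 1 gene symbol equal to a member. By this rule 9 of the 10 genes were measured, on 11 probesets, out of 12393 genes with such a probeset. S100a11 was left without a value because its probeset carries several symbols. Mammary glands were compared between QSi5, an inbred strain bred for large litters and short intervals between them, and CBA (CBA/CaH), an inbred strain that was not selected for these traits. All mice were females in their first lactation, and an inguinal gland labelled as lactation day 9 was taken from 5 QSi5 and 5 CBA mice, with 1 Affymetrix array per mouse. The study's methods place the harvest on that day, whereas the series record has the pups weaned by force after 9 days, and the time between weaning and harvest is not given in the sources used here. The glands of 3 mice per strain were hybridised to the MOE430 2.0 chip and those of 2 mice per strain to the MOE430A 2.0 chip. The 2 strains differ across the genome, so a difference between them cannot be traced to a single locus in this design.

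S100 proteins are small calcium-binding proteins built around EF-hand motifs, and most of them work as dimers that change shape on binding calcium and then dock to a target protein inside the cell. Some are also released and act outside the cell, S100a8 and S100a9 on receptors such as Tlr4 and Ager. Their best known sources differ, with S100a8 and S100a9 abundant in neutrophils, S100a4 in fibroblasts and leukocytes, and S100a14 in epithelia. Nearly all S100 genes of the mouse lie in a single group on chromosome 3. The gland in lactation is largely secretory epithelium, which moves large amounts of calcium into milk.

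Values are log2 intensities, deposited after robust multi-array averaging (RMA), which joins background correction, quantile normalisation and a summary of the probes. Every difference is the QSi5 mean minus the CBA mean in log2 units, given with the standard error (SE) of a limma fit, and calls were made where the p of that fit, adjusted by Benjamini-Hochberg (BH), was under 0.05. Probesets were tested where the mean unlogged intensity of at least 1 strain exceeded 20, which is 4.32 on the log2 scale, and 11501 of 22626 probesets passed. Array medians lay between 4.21 and 4.30, and the 5 milk protein genes used to check the tissue lay between 12.96 and 14.26 in every mouse. In QSi5 replicate 4 all 10 lymphocyte markers were at their highest, with a summed level of 55.4 against 37.8 to 39.4 in the other mice. In CBA replicate 3 a set of genes lay far above the other mice, as described with S100a8 below.

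The stretches upstream of S100a16, S100a8 and S100a9 are shown because the values described below turn on these 3 genes. Each is a RefSeq window of 300 bases on GRCm38.p6, with 250 bases before and 50 after an annotated transcription start, written from 5′ to 3′ in the direction of the gene. Capitals mark matches to the motifs searched.
S100a16 window at chr3:90537004-90537303, plus strand: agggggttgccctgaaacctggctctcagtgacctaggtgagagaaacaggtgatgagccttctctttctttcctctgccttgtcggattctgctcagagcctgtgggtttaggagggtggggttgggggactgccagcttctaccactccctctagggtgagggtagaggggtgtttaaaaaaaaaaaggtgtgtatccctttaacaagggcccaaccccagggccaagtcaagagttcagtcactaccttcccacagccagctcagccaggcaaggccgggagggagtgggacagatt
S100a16 window at chr3:90540896-90541195, plus strand: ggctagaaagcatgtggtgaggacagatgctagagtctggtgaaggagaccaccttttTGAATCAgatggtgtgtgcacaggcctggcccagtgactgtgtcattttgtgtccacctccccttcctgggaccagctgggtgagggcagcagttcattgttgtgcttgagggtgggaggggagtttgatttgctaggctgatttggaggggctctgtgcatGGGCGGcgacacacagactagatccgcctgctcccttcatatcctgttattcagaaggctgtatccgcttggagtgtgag
S100a8 window at chr3:90668821-90669120, plus strand: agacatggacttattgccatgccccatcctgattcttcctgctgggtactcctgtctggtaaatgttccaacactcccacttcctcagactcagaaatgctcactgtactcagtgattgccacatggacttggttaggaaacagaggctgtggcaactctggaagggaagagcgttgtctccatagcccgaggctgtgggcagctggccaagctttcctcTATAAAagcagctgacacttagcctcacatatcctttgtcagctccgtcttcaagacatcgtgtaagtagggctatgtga
S100a9 window at chr3:90695672-90695971, minus strand: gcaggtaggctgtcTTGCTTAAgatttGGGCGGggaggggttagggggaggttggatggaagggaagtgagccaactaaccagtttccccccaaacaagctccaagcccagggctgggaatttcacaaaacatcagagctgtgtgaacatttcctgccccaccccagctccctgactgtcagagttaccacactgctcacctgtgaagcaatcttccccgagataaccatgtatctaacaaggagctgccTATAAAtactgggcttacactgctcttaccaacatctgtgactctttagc

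The motifs searched on both strands were TATAAA, known as the TATA box, the GC box GGGCGG, and TTNNGCAA as a C/EBP-like motif. TTCNNNGAA was searched as a STAT-like motif and TGANTCA as an AP-1-like motif, where N stands for any base. Of all 32817 RefSeq windows of this length in the table, 13.6% hold TATAAA, 35.6% hold GGGCGG, 10.8% hold TTNNGCAA, 8.29% hold TTCNNNGAA and 7.81% hold TGANTCA. The first S100a16 window holds none of them. The second holds GGGCGG starting at base -30 and TGAATCA at base -192 from the start. TGAATCA matches the AP-1-like pattern with A at its open base. The S100a8 window holds TATAAA at base -30. The S100a9 window holds TTGCTTAA, the C/EBP-like motif on the other strand, at base -236, GGGCGG at base -223 and TATAAA at base 1, where base 1 is the first base of the annotated transcript. Over the 9 windows of the 8 members that have one in the table, TATAAA occurred in 3, GGGCGG in 3, TTNNGCAA in 1, TTCNNNGAA in 0 and TGANTCA in 2. The windows of S100a1 and S100a13, which run in opposite directions, share 204 bases.

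Of the 11 member probesets, 8, from 6 genes, were tested. S100a16 was called lower in QSi5 mice and the other 7 tested probesets were not called. Over all probesets tested, 1.49% were called lower and 1.43% higher (2.92% in either direction), and 5.11% had strains whose values did not overlap. At the looser threshold of an unadjusted limma p under 0.01, S100a16 was again the only tested member, beside 6.44% of all probesets. Among the 8 tested member probesets, that of S100a16 was also the only one whose strains did not overlap. With S100a16 aside the differences lay between -1.03 for S100a8, which passed the intensity minimum through 1 CBA mouse, and -0.01 for S100a1 on its brighter probeset, which turned positive after a second quantile normalisation. On the brightest probeset of each of the 9 measured members, with no intensity minimum, 8 differences were negative and 1 positive (median -0.25), beside 46.0% negative over all 12393 genes (median 0.01). Without CBA replicate 3, 5 were negative and 4 positive (median -0.18), beside 49.1% negative over all genes (median 0.00). In bulk tissue, fewer cells of a type and less RNA per cell cannot be told apart.

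**Figure D1:**
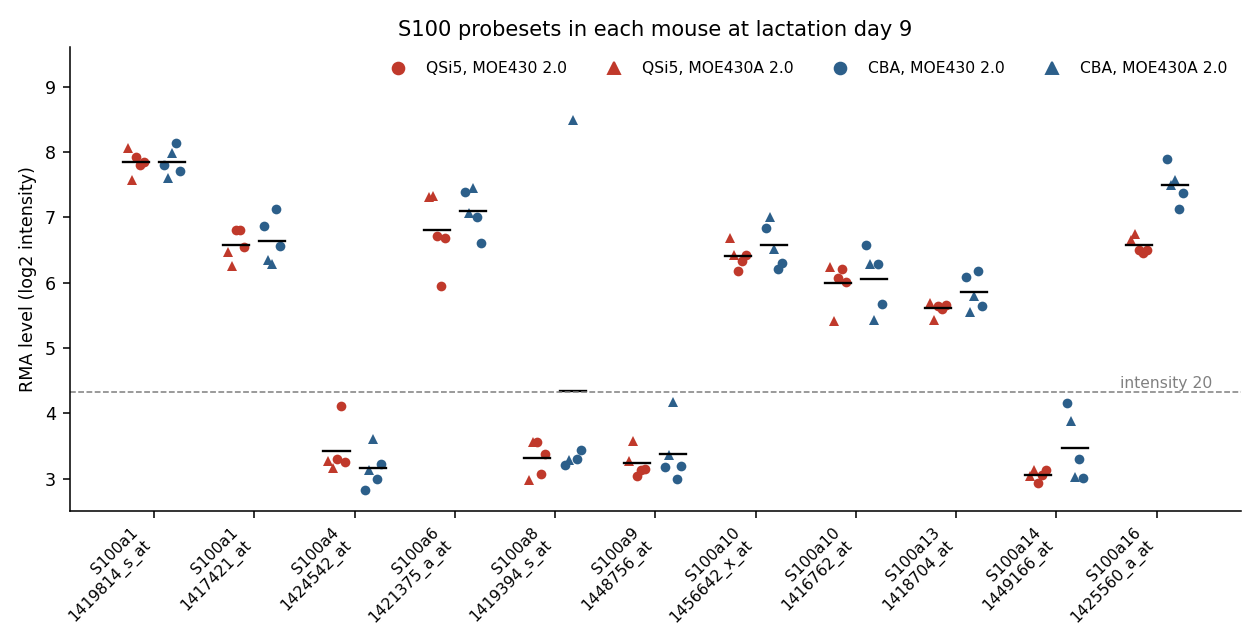
RMA level (log2 intensity) of the 11 S100 probesets in each of 10 mice, QSi5 in red on the left and CBA in blue on the right of each pair, with circles for MOE430 2.0 and triangles for MOE430A 2.0 arrays. Black bars are strain means and the dashed line is the intensity of 20 used as a minimum. Only S100a16 has strains that do not overlap, and a single CBA mouse lies far above the rest for S100a8.

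**Figure D2:**
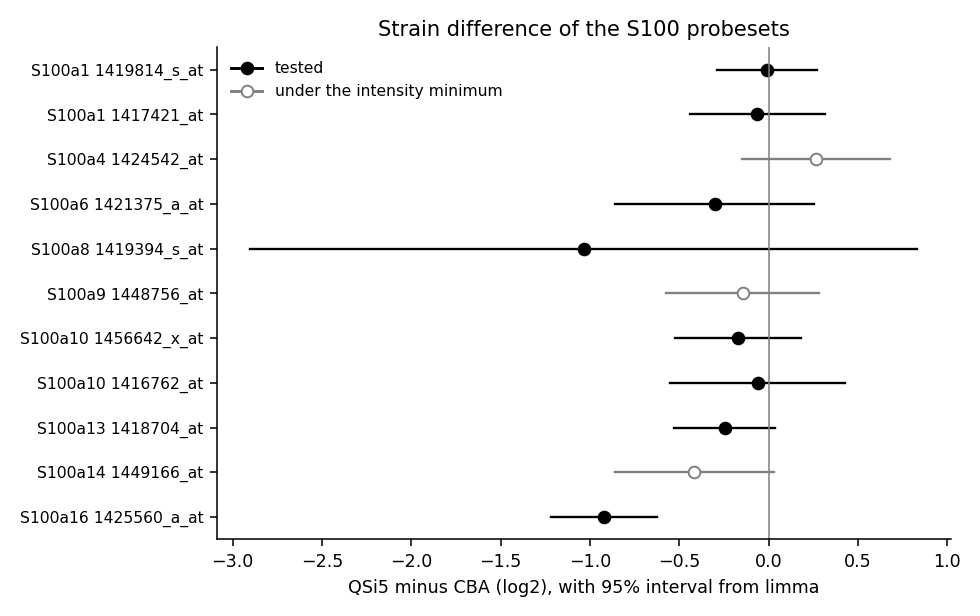
QSi5 minus CBA difference (log2) of each S100 probeset with the 95% interval of the limma fit, n = 5 mice per strain. Filled points were tested and open grey points lay under the intensity minimum, with intervals from a fit without that minimum. The interval of S100a16 runs from -1.22 to -0.62, and all others cross 0.

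S100a16 encodes a widely expressed member of the family. Its probeset (1425560_a_at) had levels of 6.66, 6.74, 6.50, 6.45 and 6.51 in QSi5 mice 1 to 5, against 7.90, 7.50, 7.57, 7.12 and 7.38 in CBA mice 1 to 5. The highest QSi5 mouse lay 0.38 below the lowest CBA mouse, and the CBA mice were more spread. The means were 6.57 ± 0.12 in QSi5 mice and 7.49 ± 0.28 in CBA mice (SD, n = 5 each). The difference was -0.92 (SE 0.14, limma, BH adjusted p = 0.00239), a QSi5 level 0.528 times that of CBA. Within the MOE430 2.0 chips the difference was -0.98 (limma adjusted p = 0.0646, 3 mice per strain) and within the MOE430A 2.0 chips it was -0.83 (adjusted p = 0.198, 2 mice per strain), so neither chip type alone passed the threshold. With each mouse left out in turn the call held 10 times, with differences between -1.01 and -0.82.

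The genes whose levels over the 10 mice were most correlated with those of S100a16, among 7404 other tested genes, were Cp, Krt8 and Frrs1. Because the strains do not overlap for S100a16, such a correlation rests largely on the strain difference, so the correlation of levels centred within strain is given beside it, both as descriptions. Cp, which encodes the copper-carrying ferroxidase ceruloplasmin, had Pearson's r = 0.98 and Spearman's rho = 0.976 over the 10 mice, and r = 0.93 after centring. Krt8, a keratin of luminal epithelial cells, had r = 0.97 and rho = 0.964, and r = 0.91 after centring. Frrs1, a ferric-chelate reductase, had r = 0.96 and rho = 0.976, and r = 0.87 after centring.

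These 3 genes were also lower in QSi5 mice and their strains did not overlap, which the choice by correlation over all 10 mice largely fixed. Their adjusted p values below describe them and give no separate support to the S100a16 difference. Cp had levels of 8.73, 9.26, 8.53, 8.30 and 8.36 in QSi5 mice 1 to 5, against 11.31, 10.95, 10.78, 9.65 and 10.02 in CBA mice 1 to 5, a difference of -1.91 (SE 0.30, limma adjusted p = 0.00338). Krt8 had 8.05, 8.20, 8.02, 7.99 and 8.24 in QSi5 mice, against 9.47, 8.98, 9.01, 8.48 and 8.67 in CBA mice, a difference of -0.83 (SE 0.16, adjusted p = 0.0167). Frrs1 had 5.72, 5.81, 5.63, 5.39 and 5.79 in QSi5 mice, against 6.60, 6.40, 6.24, 5.96 and 6.15 in CBA mice, a difference of -0.60 (SE 0.13, adjusted p = 0.0320). In all 4 genes, S100a16 included, CBA replicate 1 was the highest mouse and CBA replicate 4 the lowest of its strain, and QSi5 replicate 4 was the lowest of its strain. The choice by correlation also favours such a shared order. The call of Krt8 was lost without QSi5 replicate 3 (adjusted p = 0.0528), and that of Frrs1 when any single mouse among QSi5 replicates 1, 3, 4 and 5 and CBA replicates 1, 2, 3 and 5 was left out (adjusted p from 0.0507 to 0.0921). No call of Cp was lost when a mouse was left out. Alone on the MOE430 2.0 chips, Cp had an adjusted p of 0.0646.

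**Figure D3:**
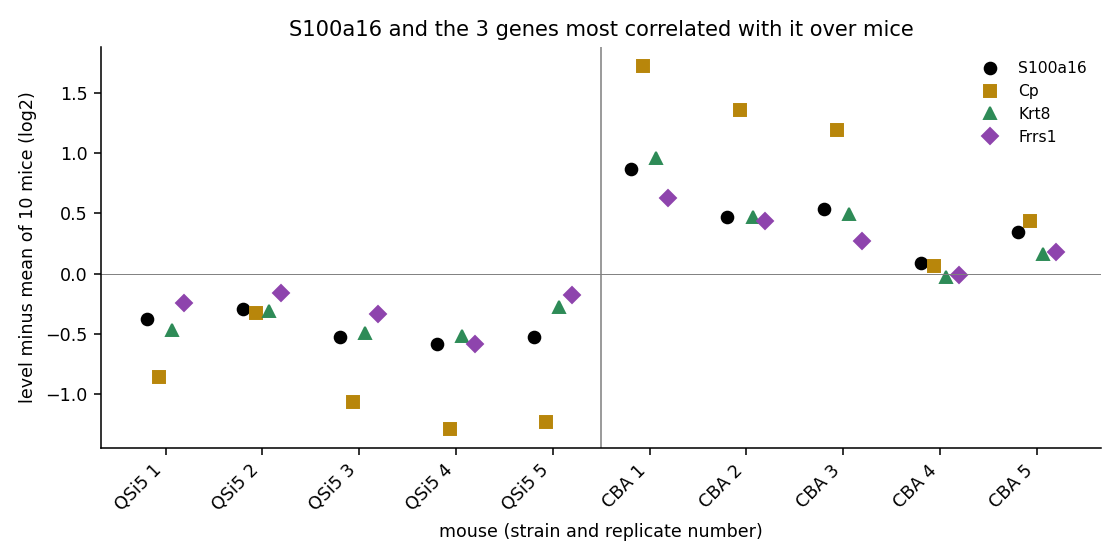
Level minus the mean of the 10 mice (log2) for S100a16, Cp, Krt8 and Frrs1, with 1 column per mouse, QSi5 left of the grey line and CBA right of it. The 4 genes lie below their mean in the 5 QSi5 mice, and in the CBA mice they stand highest in replicate 1 and lowest in replicate 4. Cp, Krt8 and Frrs1 were chosen for their correlation with S100a16 over these mice.

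Markers of the epithelium were read beside S100a16. Of the 14 luminal and secretory epithelial genes tested, 0 were higher and 1 was lower, Krt8, beside 1.31% higher and 1.36% lower over all genes (2.67% in either direction). An unadjusted limma p under 0.05 was found for 3, Krt8, Lalba and Cldn7, beside 14.8% of all genes. Lalba was higher in QSi5 mice (0.40, SE 0.11, limma adjusted p = 0.0853) and its strains did not overlap. Cldn7 was lower (-0.28, SE 0.12, limma adjusted p = 0.311). The summed level of these 14 genes was 144 to 147 in QSi5 mice and 145 to 152 in CBA mice, and their median difference was -0.06. These summaries join unlike genes. Besides Krt8 and Cldn7, Cdh1 (-0.65), Krt19 (-0.26), Cldn3 (-0.25) and Epcam (-0.21) had negative differences, and Krt18 (0.08) a positive one. The milk protein genes Csn1s1, Csn2, Csn3 and Wap had differences of -0.001 to 0.031. Cel differed by 0.18 and Elf5 by -0.11. Of the 7 myoepithelial genes tested limma called none in either direction and 0 had an unadjusted p under 0.05, with a median difference of -0.10. The part of epithelial content in the S100a16 difference was not tested.

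S100a8 and S100a9 form calprotectin, the dimer that neutrophils carry in large amounts. S100a8 (1419394_s_at, whose suffix marks probes that can match several transcripts) had levels of 2.98, 3.56, 3.57, 3.08 and 3.37 in QSi5 mice 1 to 5, against 3.20, 3.28, 8.48, 3.31 and 3.44 in CBA mice 1 to 5. CBA replicate 3 was the single high mouse, and the other 9 lay within 2.98 and 3.57, under the intensity minimum. The probeset therefore entered the test through that mouse alone, with a mean unlogged intensity below 20 in QSi5 mice and of 79.6 in CBA mice. The difference was -1.03 (SE 0.86, 95% interval -2.90 to 0.83, limma adjusted p = 0.633), and without CBA replicate 3 it was 0.00, with means of 3.31 ± 0.27 in QSi5 mice (SD, n = 5) and 3.31 ± 0.10 in CBA mice (SD, n = 4). Within chip types it was 0.02 on MOE430 2.0 and -2.62 on MOE430A 2.0, the chip of CBA replicate 3.

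S100a9 (1448756_at) lay under the intensity minimum in both strains. Its levels were 3.27, 3.58, 3.04, 3.13 and 3.15 in QSi5 mice, against 3.17, 3.36, 4.17, 3.00 and 3.19 in CBA mice. The same CBA mouse was highest, at a level also under the minimum. The strain difference was -0.14, and 0.05 without that mouse, and in a fit without the intensity minimum its 95% interval ran from -0.57 to 0.28 (limma adjusted p = 0.855). In that fit 1.48% of all probesets were called, and S100a16 was the only member among them.

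The levels of the 2 calprotectin genes, centred within strain, had Pearson's r = 0.875 (two-sided permutation p = 0.00727, BH adjusted p = 0.0145 over the 2 pairs tested) and Spearman's rho = 0.588 (permutation p = 0.0800) over 10 mice. All of these levels but that of S100a8 in CBA replicate 3 lay under the intensity minimum. The relation rests on CBA replicate 3, because without it r was 0.154 (exact p = 0.698, n = 9). Without the 2 mice farthest from the median of S100a8, CBA replicates 3 and 1, r was 0.153 (exact p = 0.723, n = 8). Centred within strain and chip type, r was 0.92.

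CBA replicate 3 was then compared with the other mice, a comparison chosen after the values were seen. The highest other mouse was set to the intensity minimum of 4.32 where it lay under it, which makes the gap of such a probeset a lower bound. Its S100a8 level was at least 4.16 above the other mice on the log2 scale (at least 17.9-fold), the widest gap measured in this way for this mouse over 22626 probesets. Next in that order came Gbp2 (4.07), an interferon-induced GTPase, Chil1 (4.03), a chitinase-like secreted protein, and the acute phase gene Saa3 (3.85). After these came Saa2 (3.64) and further interferon-induced GTPase genes, Iigp1 (3.57), Gbp3 (3.38) and Igtp (3.36). Haptoglobin (Hp) had a gap of at least 2.98, followed by Ifi47 (2.70), also of the interferon-induced GTPases. Cd177, a surface glycoprotein of neutrophils, had one of at least 1.13. The part of an interferon response in the levels of this mouse was not tested. Gaps above 2 on the log2 scale were found on 19 probesets in QSi5 replicate 4, on 23 in CBA replicate 3, on 6 in CBA replicate 1 and on none in the other mice.

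Neutrophil markers were read in the same mouse. Of 12 neutrophil markers, without Lcn2 and Ltf, which mammary epithelium also makes, 1 was above the highest other mouse in CBA replicate 3, Fpr2, a formyl peptide receptor, at 3.90 and so under the intensity minimum. Cd177, which is not among the 12, was above all other mice there, as given before. Lcn2 and Ltf themselves were also highest there, Lcn2 at 13.01 against at most 12.54 and Ltf at 12.52 against at most 12.18. Of the listed binding partners, Cyba was at 8.09 against at most 6.36, whereas Rac2, at 4.93, lay within the other mice. The neutrophil content of this gland was not tested. The 12 lay between -0.61 and 0.57 of the median of the other mice, and 6 were under the intensity minimum in every mouse, among them Fpr2 and the granule protease genes Prtn3 and Ctsg. Their summed level was 47.7 in CBA replicate 3, against 49.0 to 51.1 over the QSi5 mice and a range of 47.7 to 51.3 over the CBA mice. Elane, the gene of neutrophil elastase, was at 5.28 in CBA replicate 3, against 5.47 to 5.89 in the other mice. All 12 lay between 2.62 and 5.89 in every mouse. With levels so low throughout, they cannot show whether the glands differed in neutrophils. Of the 14 neutrophil genes in the whole list, 7 were tested and limma called none in either direction (median difference -0.02), beside 2.67% of all genes, with 1 at an unadjusted p under 0.05, Lcn2, beside 14.8% of all genes.

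**Figure D4:**
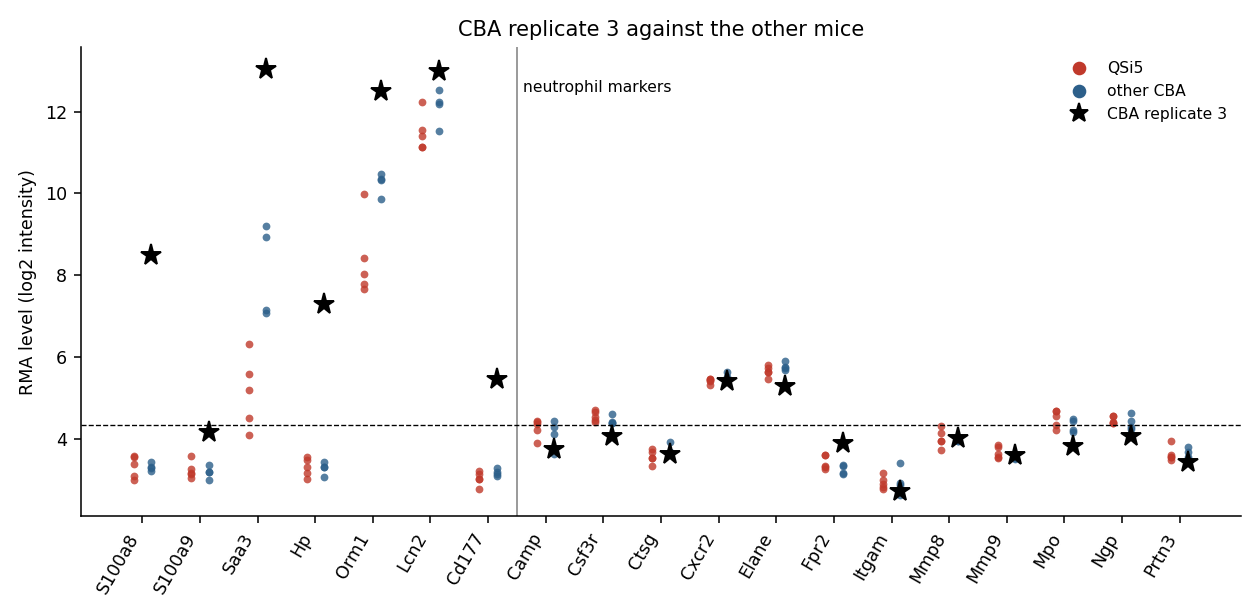
RMA level (log2 intensity) of S100a8, S100a9, Saa3, Hp, Orm1, Lcn2 and Cd177 (left of the grey line) and of 12 neutrophil markers (right). Red dots are QSi5 mice, blue dots the other CBA mice and black stars CBA replicate 3, and the dashed line is the intensity of 20 used as a minimum. The star of S100a8 lies at 8.48 with the 9 other mice under the line, whereas among the 12 neutrophil markers only that of Fpr2 lies above the other mice, at 3.90 and under the line.

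The average of the listed acute phase and involution genes was highest in the same mouse, though single genes were split between mice. Averaged over 18 acute phase and involution genes, each set against its own mean over the 10 mice, the level ran between -1.19 and -0.37 in QSi5 mice, and between -0.30 and 1.92 in CBA mice, with CBA replicate 3 at 1.92, CBA replicate 1 at 1.60 and CBA replicate 2 at 0.89. These 3 CBA mice also had the 3 highest levels of S100a16. Of the tested genes, CBA replicate 3 was the highest mouse for Clu, Hp, Il4ra, Lcn2, Orm1, Orm2, Saa1, Saa2 and Saa3. CBA replicate 1 was the highest for Cd14, Cebpd, Igfbp5, Lbp, Socs3, Stat3 and Timp1, and CBA replicate 2 for Bcl3. Of the 17 such genes tested, 11 had an unadjusted limma p under 0.05, beside 14.8% of all genes. Because lists were chosen with earlier results of these data known, these counts describe the list and are no test of it. Of the 17, 0 were higher, beside 1.31% of all genes, and 4 were lower in QSi5 mice (median difference -0.79), beside 1.36%, Saa1 (-4.97, SE 1.05, limma adjusted p = 0.0234), Saa3 (-3.95, SE 0.95, adjusted p = 0.0465), Orm1 (-2.33, SE 0.52, adjusted p = 0.0318) and the protease inhibitor gene Timp1 (-0.63, SE 0.12, adjusted p = 0.0148). Saa1, Saa3 and Orm1 encode secreted acute phase proteins. Leaving out CBA replicate 3 ended none of these calls, but others did. With any single mouse among QSi5 replicates 3, 4 and 5 and CBA replicates 1 and 2 left out, Saa1 had an adjusted p of 0.0570 to 0.0727. With a single QSi5 mouse or CBA replicate 1 or 2 left out, Saa3 had 0.0603 to 0.120. With any single mouse among QSi5 replicates 2 to 5 and CBA replicates 1 and 2 left out, Orm1 had 0.0550 to 0.0903, and without QSi5 replicate 5 Timp1 had 0.0503. The part of an acute phase state in the S100a8 and S100a16 levels was not tested, nor was that of the time since weaning.

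S100a10 encodes p11, which does not respond to calcium and joins annexin A2 (Anxa2) in a heterotetramer at the plasma membrane. The brighter of its probesets (1456642_x_at) had levels of 6.68, 6.43, 6.17, 6.32 and 6.42 in QSi5 mice, against 6.84, 7.01, 6.52, 6.21 and 6.29 in CBA mice. The other (1416762_at) had 6.23, 5.42, 6.07, 6.21 and 6.01 in QSi5 mice, against 6.57, 6.28, 5.43, 6.29 and 5.67 in CBA mice. The strains overlapped on both, with differences of -0.17 (SE 0.16, 95% interval -0.52 to 0.18, limma adjusted p = 0.685), or -0.06 without CBA replicate 2, and -0.06 (SE 0.23, 95% interval -0.55 to 0.43, adjusted p = 0.929). The suffix _x_at marks probes that can also bind other transcripts. Anxa2 had a difference of -0.15 (SE 0.16), and its centred levels had r = 0.509 with those of S100a10 (two-sided permutation p = 0.131, rho = 0.430, permutation p = 0.220, n = 10).

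S100a6, or calcyclin, binds the calcyclin-binding protein Cacybp and annexins. Its probeset (1421375_a_at) had levels of 7.31, 7.33, 6.71, 5.94 and 6.69 in QSi5 mice, against 7.38, 7.06, 7.45, 7.00 and 6.60 in CBA mice. QSi5 replicate 4 was the lowest mouse, and the strains overlapped. The difference was -0.30 (SE 0.25, 95% interval -0.86 to 0.25, limma adjusted p = 0.640), and -0.09 without that mouse. Its sign depended on the chip type, with -0.55 on MOE430 2.0 and 0.07 on MOE430A 2.0. With strain in the fit, no tested member probeset was called between the chip types, beside 0.487% of all probesets.

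S100a13, which takes part in the release of Fgf1 and Il1a without a signal peptide, had levels of 5.69, 5.43, 5.64, 5.60 and 5.66 in QSi5 mice, against 6.08, 5.56, 5.79, 6.17 and 5.65 in CBA mice (1418704_at). CBA replicates 1, 3 and 4 were above every QSi5 mouse and CBA replicates 2 and 5 were not. The difference was -0.25 (SE 0.13, 95% interval -0.53 to 0.04, limma adjusted p = 0.418). S100a1, a regulator of calcium cycling best known from heart muscle, overlapped between the strains on both its probesets. Its brighter probeset (1419814_s_at) lay at 7.57 to 8.06 in QSi5 mice and at 7.59 to 8.14 in CBA mice, a difference of -0.01 (SE 0.13, 95% interval -0.29 to 0.27, adjusted p = 0.985). The other (1417421_at) lay at 6.26 to 6.81 in QSi5 mice and at 6.29 to 7.13 in CBA mice, a difference of -0.06 (SE 0.17, 95% interval -0.44 to 0.31, adjusted p = 0.906).

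S100a4 and S100a14 lay under the intensity minimum in both strains and were not tested in the main comparison. S100a4, first known from metastatic mammary tumour cells of the mouse, had levels of 3.26, 3.17, 3.30, 4.11 and 3.26 in QSi5 mice, against 2.83, 3.14, 3.60, 2.99 and 3.22 in CBA mice (1424542_at). QSi5 replicate 4, the mouse in which the lymphocyte markers stood at their highest, was the high one. The difference was 0.26, and 0.09 without that mouse, and the part of the lymphocyte markers in it was not tested. S100a14, an epithelial member, had 3.04, 3.14, 2.93, 3.05 and 3.13 in QSi5 mice, against 4.16, 3.88, 3.03, 3.30 and 3.00 in CBA mice (1449166_at). CBA replicates 1, 2 and 4 were above every QSi5 mouse, and the difference was -0.41, or -0.24 without CBA replicate 1. In the fit without the intensity minimum the 95% intervals ran from -0.15 to 0.68 for S100a4 (limma adjusted p = 0.688) and from -0.86 to 0.03 for S100a14 (adjusted p = 0.487).

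Along chromosome 3 the RefSeq order of the group is S100a1, S100a13, S100a14, S100a16, S100a3, S100a2, S100a4, S100a5, S100a6, S100a7a, S100a8, S100a9, S100a7l2, S100a11 and S100a10, with epidermal genes between S100a7l2 and S100a11. The genes beside S100a16 in this order, S100a14 and S100a3, gave no tested value, and S100a13 was the nearest tested gene. Together with 20 gene entries on each side of the group, 18 other genes were tested. Of these, 8 lay before the first S100 gene, 10 between S100 genes and 0 after the last. Of those between, Lor, Rptn, Lce1a2, Sprr2d, Sprr2h, Sprr2k and Sprr3 had strain means of 4.14 to 4.76. Such levels are near the intensity minimum of 4.32, where a difference is hard to see. Lce1h, Lce1i and Lce3c lay higher, on probesets with the suffix _x_at, which can also bind other transcripts. By limma none of the 18 was called higher or lower, beside 1.31% and 1.36% of all genes, and 4 of them had an unadjusted p under 0.05, beside 14.8% of all genes. Their differences lay between -0.36 for Ints3 and 0.31 for Slc39a1, with a median of 0.04. S100a16 thus had the only called difference among the genes tested in the stretch, and the difference between S100a16 and its neighbours was not tested.

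**Figure D5:**
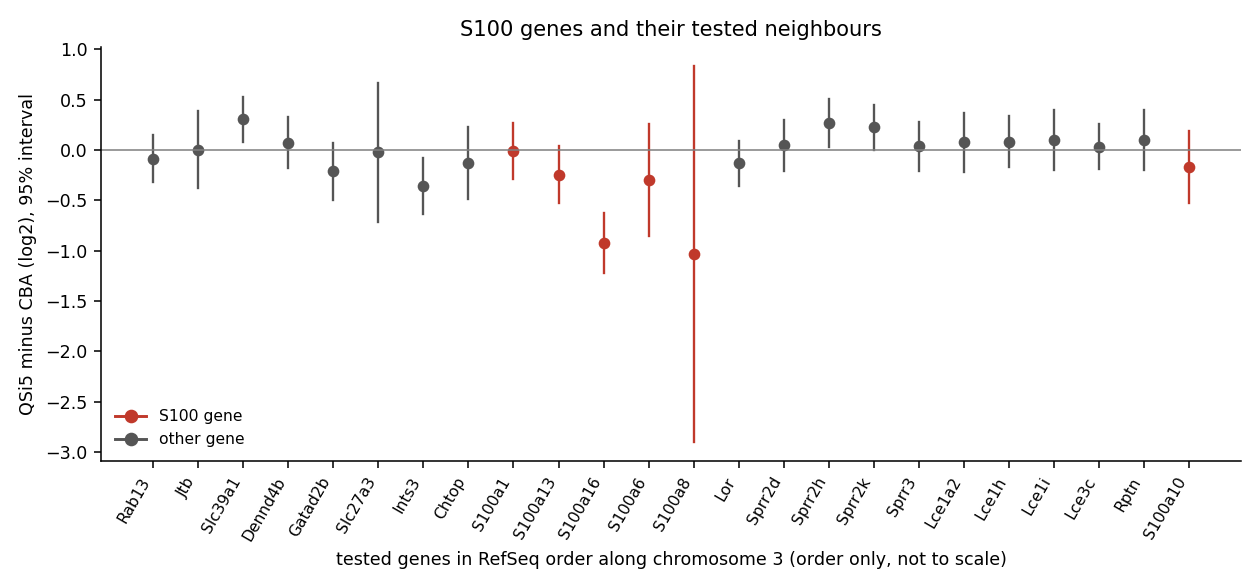
QSi5 minus CBA difference (log2) with the 95% limma interval for the tested S100 genes (red) and the other tested genes (grey), on the brightest probeset of each and in RefSeq order along chromosome 3, not to scale. S100a16 stands at -0.92, and the 18 other genes lie between -0.36 and 0.31.

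Genes that work with the family were counted next. Of the 7 receptors of S100 proteins, 6 were tested and limma called none, beside 2.67% of all genes (median difference 0.09), with 1, the scavenger receptor gene Cd36, at an unadjusted p under 0.05, beside 14.8% of all genes. Among them Tlr4 differed by 0.14 (SE 0.25) and Ager, the receptor for advanced glycation end products, by -0.02 (SE 0.13). Of the 14 binding partners tested, 0 were higher and 1 was lower, beside 1.31% and 1.36% of all genes, with a median of -0.09. It was Anxa5, an annexin that binds phosphatidylserine, with 6.95, 6.76, 6.81, 6.73 and 6.85 in QSi5 mice, against 8.14, 7.47, 7.29, 7.60 and 7.24 in CBA mice. Its difference was -0.73 (SE 0.16, limma adjusted p = 0.0257), and the strains did not overlap. The call was lost when any single mouse among QSi5 replicates 2 to 5 and CBA replicate 2 was left out (adjusted p from 0.0557 to 0.0717). Anxa1, the partner of S100a11, differed by -0.34 (SE 0.22, adjusted p = 0.541). None of the 4 other S100 genes with a probeset passed the intensity minimum.

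Of 42 tested EF-hand genes outside the family, 1 was higher and 2 were lower, beside 1.31% and 1.36% of all genes, with a median of -0.01. Efhd2, or swiprosin, which binds actin and calcium, had 6.65, 6.66, 6.38, 6.31 and 6.28 in QSi5 mice, against 7.47, 7.51, 7.60, 7.43 and 7.39 in CBA mice. Its strains were further apart than their spread, with a difference of -1.02 (SE 0.11, limma adjusted p = 0.000170). The nucleobindins, calcium-binding proteins of the secretory pathway, were called in opposite directions, Nucb1 at 0.43 (SE 0.10, adjusted p = 0.0402) and Nucb2 at -0.51 (SE 0.12, adjusted p = 0.0386). The call of Nucb1 was lost when any single mouse but QSi5 replicate 1 or 4 was left out (adjusted p up to 0.124), and that of Nucb2 when any single mouse but CBA replicate 3 was left out (adjusted p up to 0.0892).

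Markers of other cells in the gland were counted by strain. Of 10 macrophage genes tested 1 was higher, C1qa, a complement component made by macrophages (1.22, SE 0.22, limma adjusted p = 0.00954), and none was lower, beside 1.31% and 1.36% of all genes. The genes of the other C1q chains, C1qb and C1qc, differed by -0.16 (SE 0.28) and -0.04 (SE 0.20), and Cd14, a co-receptor for lipopolysaccharide, by -1.40 (SE 0.62, adjusted p = 0.319). Relative to the mean of the 10 mice, the 14 macrophage markers averaged -0.02 to 0.10 in QSi5 mice and -0.25 to 0.26 in CBA mice, with CBA replicate 3 at 0.26. None of the 5 lymphocyte, 8 fibroblast, 7 adipocyte, 4 endothelial, 1 skin keratinocyte, 3 skeletal muscle and 3 Schwann cell genes tested was called in either direction by limma, and 2 of them had an unadjusted p under 0.05, the adipocyte gene Fabp4 and the endothelial gene Cdh5, beside 14.8% of all genes. The median of the 5 lymphocyte genes was 0.51, and the summed level of the 10 lymphocyte markers in the list was 38.0 to 55.4 in QSi5 mice and 37.8 to 39.1 in CBA mice. The level of 55.4 was that of QSi5 replicate 4. Cd79b, the gene with the median difference, was at 6.22 in that mouse and at 3.65 to 3.94 in the other QSi5 mice.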

How the data were processed

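Mammary RNA of 5 QSi5 and 5 CBA mice was measured with 1 array per mouse, and strains were taken from the sample labels. The log2 values deposited by the authors come from RMA in the affy package, with both chip types normalised together on their 22690 common probesets. Versions are not given in the sources used here. The tables held 0 columns of another series. The study's methods name the MOE430A 2.0 chip for all mice, whereas the labels give the chips as used here.

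Of 22626 probesets other than 64 controls, 20380 carried 1 symbol, 691 several and 1555 none here. By Entrez identifier 20351 were matched to RefSeq on GRCm38.p6, and 0 symbols differed. No further normalisation was applied. A two-sided strain contrast was fitted with lmFit and eBayes of limma 3.58.1 (R 4.3.3) to the 11501 probesets whose strain mean, taken over unlogged values, exceeded 20 in at least 1 strain, with BH adjustment over all of them. Lists used the brightest probeset of each gene. The named genes were all members, up to 4 called genes per list with the largest difference, called chromosome 3 neighbours, the 3 genes most correlated with each called member and the genes of 3 known pairs. The pair of S100a11 with Anxa1 was not run. Slc39a1, Ints3, Gbp2, Chil1, Hp, Cd177, Fpr2, Elane, Prtn3, Ctsg, Tlr4, Ager, Cd36, Lcn2, Fabp4, Cdh5, C1qb, C1qc and Cd14 were named outside that rule, after values were seen. The same holds for Ltf, Cyba, Rac2, Lalba, Cldn7, Clu, Il4ra, Orm2, Saa2, Bcl3, Cebpd, Igfbp5, Lbp, Socs3 and Stat3. It also holds for Iigp1, Gbp3, Igtp, Ifi47, Lor, Rptn, Lce1a2, Sprr2d, Sprr2h, Sprr2k, Sprr3 and Cd79b. It further holds for Aif1, Itsn1, Lcp1, Sparcl1, Adgre1, Csf1r, Itgax, Lyz2, Mertk, Msr1, Lce1h, Lce1i and Lce3c. The rest named in this way were Cdh1, Cldn3, Epcam, Krt18, Krt19, Csn1s1, Csn2, Csn3, Wap, Cel and Elf5. Members and lists were chosen with earlier results of these data known.

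On simulated data with the 11501 probesets, the fit recovered 15 of 50 probesets given a log2 change of 0.5, 39 of 50 at 1, 50 of 50 at 2 and 49 of 50 at 3, with 8 unchanged probesets among 161 calls. Alternatives were the intensity minimum, a second quantile normalisation, median centring, chip type as a block or alone, a replicate block, an intensity trend, array weights, the suffixes _x_at and _s_at left out, and each mouse left out. An intensity minimum on the mean of log2 values was added after seeing the data. The number of arrays limits the precision.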

Additional observations from a re-analysis of the deposited data

Results flagged for a closer look

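Levels were checked for a single mouse apart from the other 4 of its strain, in 36 groups of 5 mice. The check covered the 11 S100 probesets, the genes most correlated with S100a16 in either direction, and Anxa2. Other genes named in the text, such as Hp, Gbp2, Chil1, Saa3 and Cd177, were not part of it. Chance alone is expected to mark about 1 group in 20, or 1.8 of 36, and 3 were marked. S100a8 on 1419394_s_at was at 8.48 in CBA replicate 3, against 3.20 to 3.44 in the other CBA mice. S100a4 on 1424542_at was at 4.11 in QSi5 replicate 4, against 3.17 to 3.30 in the other QSi5 mice, all under the intensity minimum. S100a10 on 1416762_at was at 5.42 in QSi5 replicate 2, against 6.01 to 6.23 in the other QSi5 mice, whereas on 1456642_x_at that mouse was at 6.43, within 6.17 to 6.68.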

How the results depend on the processing

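S100a16 was called in 20 of 22 alternatives, with differences between -1.01 and -0.82 and adjusted p between 0.000850 and 0.198. The exceptions were the chip types alone. On the MOE430 2.0 arrays alone the counts were 0 S100 probesets, 143 of all probesets and 4 listed genes, and the S100a16 difference was -0.98. On the MOE430A 2.0 arrays alone they were 0, 62 and 2, and the difference was -0.83. Fewer mice enter these fits. With all mice the counts were 1, 336 and 10. With each mouse left out they were 1 in every case, 211 to 417 and 3 to 11, with S100a16 between -1.01 and -0.82. No neighbour on chromosome 3 was called under any alternative.

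The correlation of S100a8 with S100a9 ranged from 0.154 to 0.925 with a mouse left out and was 0.153 without the 2 farthest mice, and that of S100a10 with Anxa2 ranged from 0.367 to 0.611. Without CBA replicate 3, on the MOE430 2.0 arrays alone, or with _s_at probesets left out, S100a8 was not tested. Signs turned for some differences that had not been called, and the cause was not tested. S100a1 on 1419814_s_at was 0.0495 after a second quantile normalisation, 0.0261 on the MOE430A 2.0 arrays, 0.0493 with array weights and -0.0703 to 0.0651 with a mouse left out. S100a1 on 1417421_at was 0.0432 on the MOE430A 2.0 arrays and -0.151 to 0.0585 with a mouse left out, S100a6 was 0.0682 on those arrays, and S100a10 on 1416762_at was -0.215 to 0.0809 with a mouse left out.

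The replicate numbers were not taken as pairs, since same-numbered mice correlated at -0.37 to 0.29 and 1 of 5 QSi5 mice correlated best with its own number. With the number as a replicate block, 255 probesets were called, 235 of them among the 336, and S100a16 was among the calls (-0.92, adjusted p = 0.00862), whereas those of Nucb1 and Nucb2 were lost (adjusted p = 0.110 and 0.0850).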
